A study of Mus musculus with 6 samples.

Results

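Cholesterol handling was described here through 30 genes, chosen by symbol from the 54446 genes of the deposited tables: 16 enzymes that make sterols, 3 genes that control the SREBP transcription factors, 5 genes of sterol uptake, transport and storage, the 2 liver X receptors, and 4 genes of sterol export and lipoprotein receptor turnover that those receptors drive. UMIs (unique molecular identifiers, each marking 1 captured RNA molecule) were counted in 6 droplet libraries made with a 5' single-cell kit. Of these, 2 came from GL261, an established mouse glioma line kept here in medium with fetal calf serum and labelled glioblastoma cells. The other 4 came from GL261-GSCs, labelled glioblastoma stem cells and kept in a defined medium without a stated serum component. The labels name no genetic change or drug in either culture, and neurospheres are mentioned beside cells in the dissociation step. Both groups trace to 1 cell line, and culture medium and stem cell label go together, so that their parts in any difference cannot be told apart. Nothing in the labels says that replicates came from separate cultures, and p-values then measure only the spread between these libraries.

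Cells make cholesterol from acetyl-CoA. The mevalonate arm of the pathway builds isoprenoid units up to farnesyl diphosphate, and the squalene and sterol arm joins these to squalene, closes the rings and trims lanosterol to cholesterol. When sterol in the endoplasmic reticulum is low, the escort protein SCAP carries the SREBP-2 precursor to the Golgi, where proteases release a fragment that enters the nucleus and switches on the synthesis genes. Insig proteins hold SCAP back when sterol is plentiful, and Insig1 is itself an SREBP target. Liver X receptors respond to oxysterols and work in the other direction, since they switch on exporters such as Abca1 and Abcg1, the carrier Apoe, and Mylip, a ubiquitin ligase that sends lipoprotein receptors to degradation. In the brain most cholesterol is made locally, because lipoproteins of the blood do not cross the blood-brain barrier.

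SREBP acts with the factors NF-Y and Sp1. The promoters of 5 members are shown, taken from the genes with the largest rises and the genes called lower. Dhcr7, also among the large rises, and Nr1h3, also called lower, are not shown. Each sequence is the 200 bases before the RefSeq start site on the gene's own strand (GRCm38.p6), read 5' to 3', and capitals mark matches on either strand to TCACNCCAC (a sterol regulatory element), CCAAT (NF-Y), GGGCGG (Sp1) or CACGTG (E-box). Hmgcs1 (ENSMUSG00000093930.2, chr13:119690151-119690350, plus strand) and Mvd (ENSMUSG00000006517.5, chr8:122443423-122443622, minus strand) are mevalonate enzymes. Insig1 (ENSMUSG00000045294.11, chr5:28071212-28071411, plus strand) is the sterol sensor partner. Soat1 (ENSMUSG00000026600.12, chr1:156474329-156474528, minus strand) esterifies cholesterol, and Abca1 (ENSMUSG00000015243.4, chr4:53159896-53160095, minus strand) exports it.
Hmgcs1: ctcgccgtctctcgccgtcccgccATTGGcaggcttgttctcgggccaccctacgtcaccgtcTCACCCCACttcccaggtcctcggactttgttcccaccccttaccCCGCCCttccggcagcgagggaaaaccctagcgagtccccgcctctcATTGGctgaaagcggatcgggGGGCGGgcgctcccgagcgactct
Mvd: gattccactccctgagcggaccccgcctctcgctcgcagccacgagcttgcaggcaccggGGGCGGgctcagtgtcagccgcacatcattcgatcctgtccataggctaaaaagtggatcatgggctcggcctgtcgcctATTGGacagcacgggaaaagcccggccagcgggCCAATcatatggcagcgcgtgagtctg
Insig1: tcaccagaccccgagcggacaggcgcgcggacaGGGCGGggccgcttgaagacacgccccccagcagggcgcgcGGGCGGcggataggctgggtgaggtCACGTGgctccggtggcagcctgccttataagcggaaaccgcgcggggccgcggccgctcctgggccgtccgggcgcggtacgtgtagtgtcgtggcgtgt
Soat1: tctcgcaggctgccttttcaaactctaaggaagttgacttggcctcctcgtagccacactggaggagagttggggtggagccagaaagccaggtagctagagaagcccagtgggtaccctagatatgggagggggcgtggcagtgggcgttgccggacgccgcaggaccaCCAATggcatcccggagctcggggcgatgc
Abca1: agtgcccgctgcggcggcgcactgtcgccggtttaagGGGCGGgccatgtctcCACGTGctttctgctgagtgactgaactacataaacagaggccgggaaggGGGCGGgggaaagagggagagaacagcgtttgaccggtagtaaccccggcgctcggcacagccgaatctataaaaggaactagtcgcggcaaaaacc

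In the Hmgcs1 promoter the sterol regulatory element TCACCCCAC lay 137 to 129 bases before the start site, between 2 NF-Y boxes. RefSeq promoters of 300 bases (250 before and 50 after the start site) were held for 24 of the 30 members, and not for Fdps, Fdft1, Sqle, Npc1, Stard4 and Abcg1. Hmgcs1 was the 1 of 13 synthesis genes with that element, against 1.44% of the 27025 genes of the table. The search for the element allowed no other letter at its fixed positions. It therefore does not show that the other synthesis genes lack one. An NF-Y box was found in 12 of the 13 synthesis genes (92.3%), against 41.1% of all genes. A Sp1 box was also found in 12 of 13, against 38.2%. A gene with several start sites counts here if any of its promoters held the box, as for the NF-Y box of Dhcr7. Counted by promoter, an NF-Y box was in 12 of 16 (75%), against 37.4% of all promoters. A Sp1 box was then in 13 of 16 (81.25%), against 35.7%. An E-box was found in 3 of 13, against 8.09%. The Soat1 promoter held 1 NF-Y box before the start site and a Sp1 box after it. Abca1 had no NF-Y box but 2 Sp1 boxes and 1 E-box. Of the 200-base windows not shown, that of Dhcr7 held 1 Sp1 box and no other match, and that of Nr1h3 held none. Neither box was particular to synthesis genes. Over all 24 members a Sp1 box was in 20 and an NF-Y box in 17. Among the 3 uptake, transport and storage genes these were in 3 and 2, and in neither of the liver X receptors. The LXR element, searched as 2 copies of GNTCA in the same direction with 5 letters between them, was in 0 of the 24 members and in 0.995% of all genes. This LXR search allowed no other letter at its fixed positions. The Abca1 sequence shown holds such a pair on the opposite strand with 1 fixed letter changed, which the search did not count. The count of 0 therefore does not show that Abca1 or the other members lack an LXR element. A match describes letters in a window and is not a measured binding site.

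The libraries held 80899005 to 121309232 UMIs, of which 33320530 to 79472306 lay in 4264 to 7275 called cells per library. GL261-GSCs replicate 4 stood apart in depth: 41.2% of its UMIs lay in cells, against 56.7% to 65.7% in the other libraries, and its median cell held 6670 UMIs, against 10638 to 15477.5. Pairs of libraries shared 32 to 59 cell barcodes, where 26.1 to 57.9 were due by chance. Of 5 stem or progenitor markers, Sox2, Olig2 and Fabp7 were called higher in GL261-GSCs, Nes was called lower, and Prom1 was at or under 0.0607 CPM (UMIs scaled to 1000000 per library) in all 6 libraries, so the label of stem cells was not borne out by every marker. Among 5 oligodendrocyte markers 3 were called higher, Mog and Mobp among them, and Mbp was called lower, and their summed level was 172 and 268 CPM in GL261 and 164 to 237 CPM in GL261-GSCs. Of 9 myeloid markers 7 were under 1 CPM in every library, C1qa was at 0 and Csf1r was called lower. Cd68 was at 7.87 and 7.04 CPM in GL261 and 8.92 to 23.0 CPM in GL261-GSCs and was not called (edgeR adjusted p = 0.0662), and the myeloid sum was 19.9 to 20.9 CPM in GL261 and 9.22 to 23.2 CPM in GL261-GSCs. The summed fibroblast markers, nearly all Col1a1, were at 247 and 282 CPM in GL261 and at 10.9 to 26.7 CPM in GL261-GSCs, with Col1a1 called lower and Col1a2 and Lum near 0. Of 5 astrocyte markers, Gfap and Aldh1l1 were called lower, Aqp4 was at 0, and Gja1 was at 39.5 and 38.2 CPM in GL261 and 43.9 to 127 CPM in GL261-GSCs without being called (edgeR adjusted p = 0.155), with a sum of 46.1 to 47.9 CPM in GL261 and 44.0 to 127 CPM in GL261-GSCs. Of 4 endothelial markers Flt1 was called higher, Cdh5 lower and Cldn5 was at 0, with a sum of 36.3 to 48.6 CPM against 59.0 to 86.1 CPM. The part of these marker differences in the sterol results was not tested.

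The 16 synthesis genes of the module were higher in GL261-GSCs. Of the members that store or export sterols, only Soat1, Abca1 and Apoe were tested. None of these was called higher, but they are too few to set against the 15.8% of all genes called higher. Of the 30 members, 29 held enough UMIs to be tested, and 18 were called higher in GL261-GSCs (edgeR quasi-likelihood test, Benjamini-Hochberg adjusted p under 0.05 over all 18439 genes), where 15.8% of all genes were. The members called lower were Soat1, Nr1h3 and Abca1, 3 of 29, where 14.1% of all genes were, and 8 members were not called. In 20 members every GL261-GSCs library lay above both GL261 libraries, as did 28.7% of all genes, and in 5 members every GL261-GSCs library lay below both, as did 28% of all genes. The median log2 fold change (GL261-GSCs over GL261) was 1.66 over the 29 members tested, and 0.04 over all genes. All 16 synthesis genes were called higher, with log2 fold changes from 1.20 to 3.59 and a median of 2.36. Summed over these 16 genes, the level was 506 and 502 CPM in GL261 replicates 1 and 2 and 2041, 2146, 3048 and 3319 CPM in GL261-GSCs replicates 1 to 4, a 5.24-fold ratio of the means. The GL261 libraries differed little from each other, and the lowest GL261-GSCs library stood far above both.

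**Figure D1:**
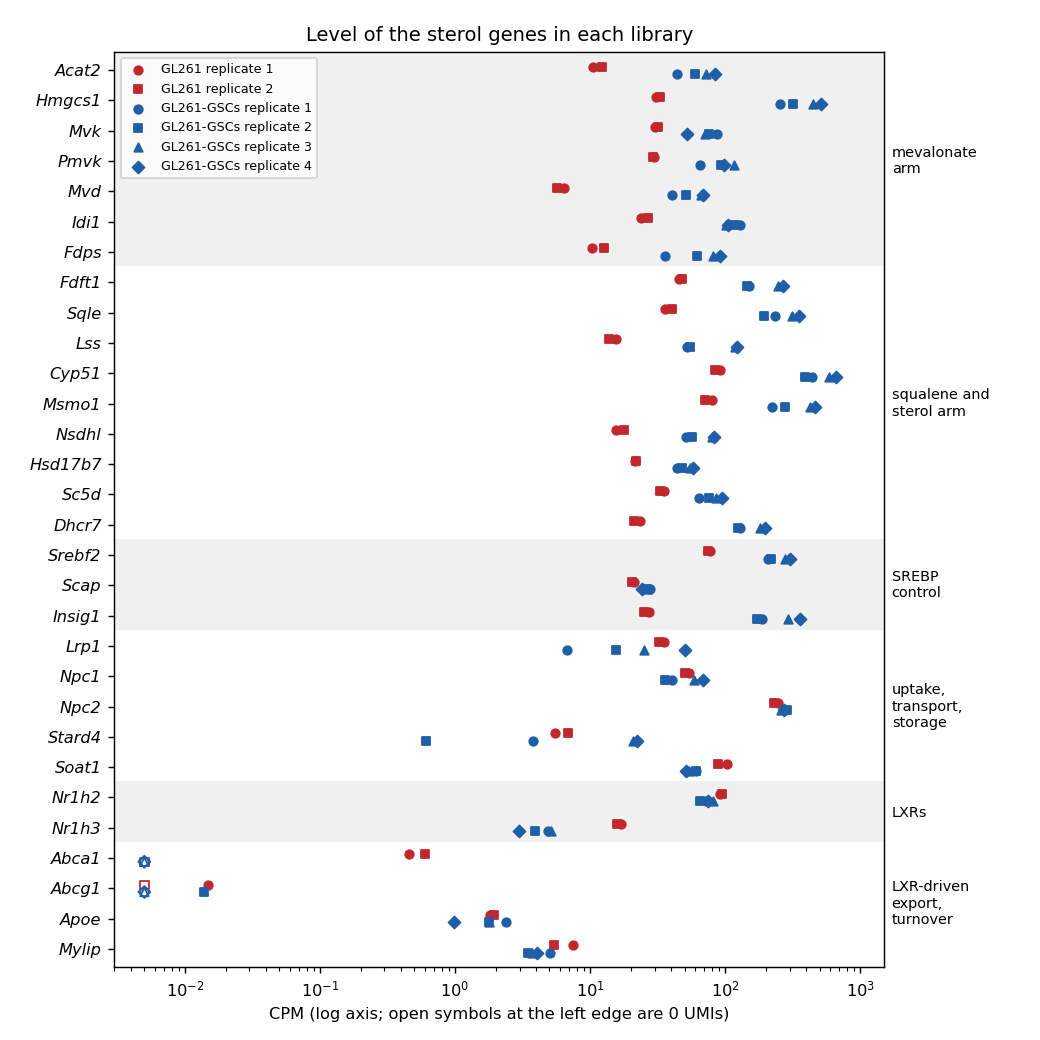
Level of each of the 30 sterol genes in each library, in CPM on a log axis, with GL261 in red and GL261-GSCs in blue and 1 symbol per replicate. Open symbols at the left edge stand for 0 UMIs. The 16 synthesis genes show the blue points to the right of both red points, and Abca1 has all 4 blue points at 0.

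The mevalonate arm held the largest rise of the module. Hmgcs1, the enzyme that makes HMG-CoA, was at 30.9 and 32.7 CPM in GL261 and at 253, 319, 447 and 516 CPM in GL261-GSCs. Every GL261-GSCs library was far above both GL261 libraries, and the lowest was 7.74 times the highest GL261 library. Its log2 fold change was 3.59 (SE 0.35, edgeR adjusted p = 0.000665). Mvd, which decarboxylates mevalonate diphosphate to isopentenyl diphosphate, was at 6.44 and 5.67 CPM in GL261 and at 40.2, 51.0, 66.8 and 68.5 CPM in GL261-GSCs, with no overlap (log2 fold change 3.22, SE 0.28, edgeR adjusted p = 0.000453). Idi1, the isomerase of that product, was even among the GL261-GSCs libraries. It was at 23.8 and 26.7 CPM in GL261 and at 128, 119, 101 and 105 CPM in GL261-GSCs, a log2 fold change of 2.17 (SE 0.16, edgeR adjusted p = 0.000253).

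The remaining mevalonate genes also rose. Acat2, the acetyl-CoA acetyltransferase that starts the pathway, was at 10.5 and 12.3 CPM in GL261 and at 43.7, 60.2, 71.7 and 83.8 CPM in GL261-GSCs (log2 fold change 2.51, SE 0.29, edgeR adjusted p = 0.00135). Fdps, the farnesyl diphosphate synthase, was at 10.4 and 12.6 CPM against 35.9, 62.2, 81.9 and 91.7 CPM (log2 fold change 2.56, SE 0.40, edgeR adjusted p = 0.00443). Both were lowest in GL261-GSCs replicate 1 and highest in replicate 4. Pmvk, the second mevalonate kinase of the arm, was at 29.9 and 29.4 CPM against 65.5, 93.2, 117 and 98.8 CPM, 1.66 on the log2 scale (SE 0.24, edgeR adjusted p = 0.00324). Mvk, the first of these kinases, had the smallest rise of the 16 synthesis genes and the opposite order among the libraries. It was at 30.1 and 31.8 CPM in GL261 and at 87.4, 75.4, 70.5 and 51.9 CPM in GL261-GSCs, a log2 fold change of 1.20 (SE 0.22, edgeR adjusted p = 0.00769).

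The squalene and sterol arm rose in all 9 of its members, and its sum went from 364 and 350.4 CPM in GL261 to 1388, 1366, 2092 and 2303 CPM in GL261-GSCs. Sqle, the squalene epoxidase and a rate-limiting oxygen-dependent step, was at 36.0 and 40.1 CPM in GL261 and at 235, 193, 314 and 350.5 CPM in GL261-GSCs. No GL261-GSCs library came near the GL261 values, and the log2 fold change was 2.84 (SE 0.29, edgeR adjusted p = 0.0008). Dhcr7, which makes cholesterol from 7-dehydrocholesterol, was at 23.5 and 20.97 CPM against 128, 125, 182 and 197 CPM (log2 fold change 2.83, SE 0.26, edgeR adjusted p = 0.00055). Cyp51, the lanosterol demethylase, was at 91.8 and 84.0 CPM against 439, 392, 588 and 664 CPM (log2 fold change 2.57, SE 0.27, edgeR adjusted p = 0.000869). In all these genes GL261-GSCs replicates 3 and 4 were above replicates 1 and 2.

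That step between pairs of libraries was wide in Lss. This lanosterol synthase was at 15.4 and 13.9 CPM in GL261, at 51.9 and 55.3 CPM in GL261-GSCs replicates 1 and 2, and at 119 and 122 CPM in replicates 3 and 4 (log2 fold change 2.57, SE 0.46, edgeR adjusted p = 0.00709). Fdft1, the squalene synthase, was at 45.5 and 47.7 CPM against 150.2, 145, 244 and 267 CPM (log2 fold change 2.11, SE 0.32, edgeR adjusted p = 0.00364). Msmo1, a sterol methyl oxidase, was at 79.2 and 71.1 CPM against 223, 276, 425 and 465 CPM (log2 fold change 2.21, SE 0.34, edgeR adjusted p = 0.00423). Nsdhl, which works beside Msmo1 in removing methyl groups, was at 15.6 and 17.7 CPM against 51.6, 56.5, 79.8 and 82.5 CPM (log2 fold change 2.02). The reductase Hsd17b7 and the desaturase Sc5d had smaller rises, 1.24 (SE 0.16, edgeR adjusted p = 0.00187) and 1.23 (SE 0.19, edgeR adjusted p = 0.00382) on the log2 scale. Hsd17b7 was at 21.6 and 21.8 CPM in GL261 and 44.2 to 57.8 CPM in GL261-GSCs, and Sc5d at 35.3 and 33.2 CPM against 63.9 to 95.2 CPM, both without overlap.

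**Figure D2:**
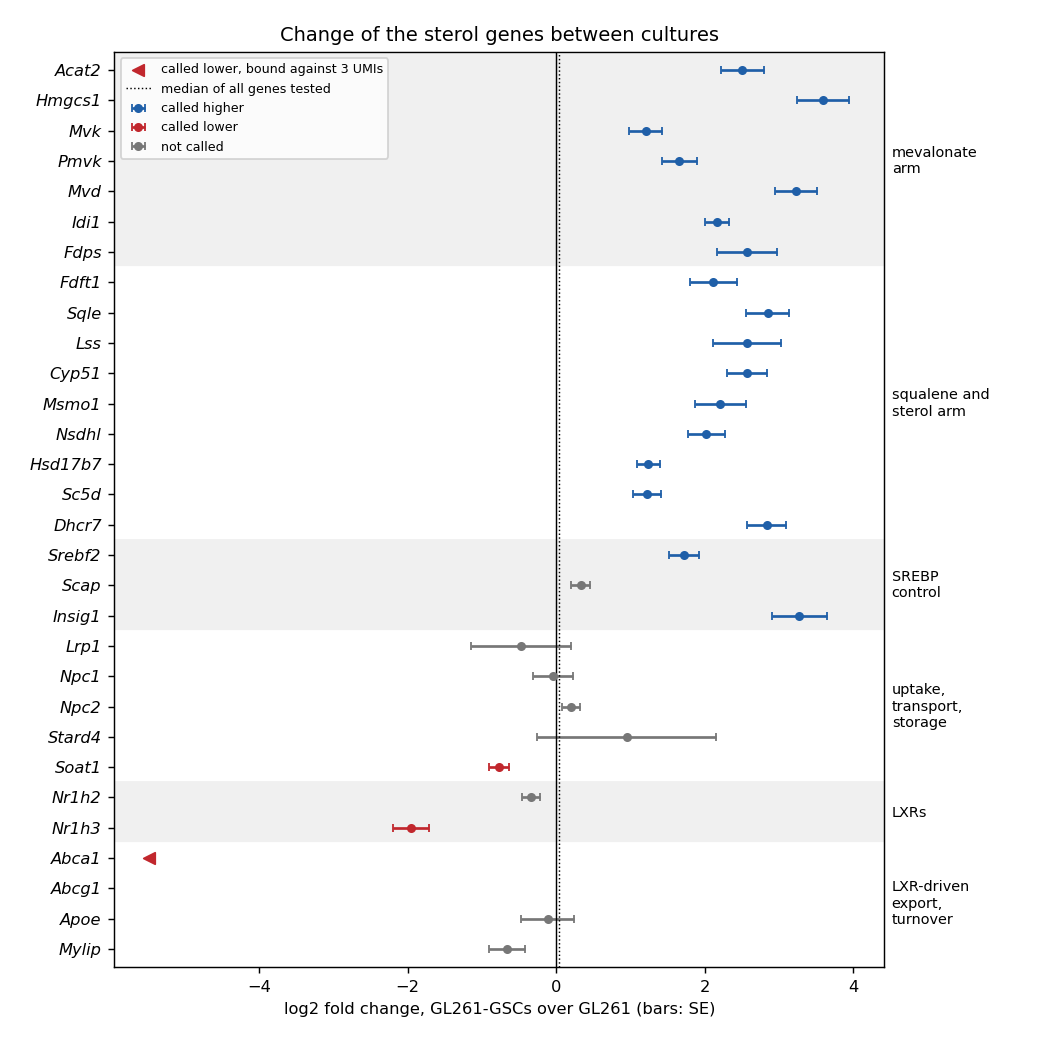
Log2 fold change of each sterol gene, GL261-GSCs over GL261, with bars of 1 SE, blue for genes called higher, red for genes called lower and grey for genes not called. The triangle gives the bound for Abca1 against 3 UMIs, the dotted line is the median of all genes tested (0.04), and Abcg1 was too low to test. The 16 synthesis genes lie between 1.20 and 3.59, while the 5 genes of uptake, transport and storage lie between -0.77 and 0.95, with Soat1 the 1 called.

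These calls rest on 2 GL261 libraries. Without GL261 replicate 1 the calls of Mvk, Fdps, Lss and Soat1 were lost and 15 members were called higher, and without GL261 replicate 2 those of Mvk, Lss, Msmo1, Sc5d and Abca1 were lost and 14 were called higher, with adjusted p of the lost calls from 0.0549 to 0.0878 and every direction kept.

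Of 8 further synthesis genes outside the module, 6 were called higher and 1 lower, where 15.8% and 14.1% of all genes were. Tm7sf2, a sterol reductase and 1 of those called higher, rose by 1.497 on the log2 scale (SE 0.30, edgeR adjusted p = 0.0116), from a mean of 13.8 ± 1.23 (SD, n = 2) to 38.8 ± 11.8 CPM (SD, n = 4). Acss2, which makes acetyl-CoA from acetate, was very uneven: 3.51 and 2.80 CPM in GL261, 13.1 and 12.5 CPM in GL261-GSCs replicates 1 and 2, and 71.1 and 127 CPM in replicates 3 and 4. Its log2 fold change was 4.15 (SE 1.19, edgeR adjusted p = 0.0388), and the call was lost with limma-voom (adjusted p = 0.104) and without either GL261 library or GL261-GSCs replicate 3. Ebp, the sterol isomerase of the late pathway, went the other way. It was at 147 and 160.2 CPM in GL261 and at 110.5, 100.02, 109 and 84.9 CPM in GL261-GSCs, a log2 fold change of -0.60 (SE 0.14, edgeR adjusted p = 0.0201), and the calls of Tm7sf2 and Ebp were lost without either GL261 library, that of Ebp also after thinning.

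Of the 3 genes of SREBP control, Srebf2 and Insig1 were called higher and Scap was not, where 15.8% of all genes were called higher. Srebf2, which encodes SREBP-2, was at 77.6 and 74.96 CPM in GL261 and at 208, 217, 278 and 304 CPM in GL261-GSCs. The groups did not overlap, and the log2 fold change was 1.72 (SE 0.20, edgeR adjusted p = 0.00144). Insig1 was at 27.1 and 25.2 CPM against 187, 172, 293 and 357 CPM, 3.27 on the log2 scale (SE 0.37, edgeR adjusted p = 0.00123), the rise next in size to that of Hmgcs1 among the 29 members tested. Scap was at 21.2 and 20.4 CPM against 27.7, 26.3, 26.3 and 24.3 CPM. Its groups did not overlap but lay close together, at 0.33 on the log2 scale (SE 0.13, edgeR adjusted p = 0.0915).

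None of 8 further SREBP control genes was called higher and 2 were called lower, where 15.8% and 14.1% of all genes were. Srebf1, which encodes SREBP-1, was at 39.0 and 37.4 CPM in GL261 and at 35.0, 24.97, 44.2 and 44.0 CPM in GL261-GSCs, with overlapping groups (log2 fold change -0.04, SE 0.24, edgeR adjusted p = 0.909). Insig2, the other Insig gene, was at 30.9 and 34.7 CPM against 32.6 to 33.8 CPM (log2 fold change 0.03, SE 0.12, edgeR adjusted p = 0.874). The site proteases Mbtps1 and Mbtps2 gave 0.47 (edgeR adjusted p = 0.0762) and 0.37 (edgeR adjusted p = 0.0586) on the log2 scale. Erlin1, an endoplasmic reticulum protein tied to SREBP restraint, was at 51.0 and 59.8 CPM against 34.5, 38.5, 27.0 and 27.1 CPM, a log2 fold change of -0.80 (SE 0.18, edgeR adjusted p = 0.0184). This call was lost without either GL261 library.

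Of 5 genes of uptake, transport and storage, 1 was called lower and none higher, where 14.1% and 15.8% of all genes were, and the sum was 445 and 408 CPM in GL261 and 389.5, 399, 415 and 463 CPM in GL261-GSCs. Soat1, which esterifies cholesterol for storage, was the gene called lower, at 104 and 89.0 CPM in GL261 and 60.7, 61.1, 53.5 and 51.3 CPM in GL261-GSCs. The groups did not overlap, and the log2 fold change was -0.77 (SE 0.13, edgeR adjusted p = 0.00652). Npc1 and Npc2 together move cholesterol out of lysosomes. Npc2 was at 247 and 229 CPM against 278, 285, 257 and 270.4 CPM (log2 fold change 0.20, SE 0.12, edgeR adjusted p = 0.25), and Npc1 at 54.1 and 50.7 CPM against 40.5, 36.1, 58.6 and 68.4 CPM (log2 fold change -0.04, SE 0.27, edgeR adjusted p = 0.92), with a sign that turned under 5 of the alternatives.

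Stard4 and Lrp1 differed more among the GL261-GSCs libraries than between the groups. Stard4, a carrier of cholesterol between membranes and a known SREBP target, was at 5.47 and 6.86 CPM in GL261 and at 3.78, 0.607, 20.9 and 22.4 CPM in GL261-GSCs. Replicates 1 and 2 lay below both GL261 libraries and replicates 3 and 4 above both, and the highest was 36.9 times the lowest. Its log2 fold change was 0.95 (SE 1.21, edgeR adjusted p = 0.584), and the sign turned under 2 of the alternatives. Lrp1, a large receptor that takes up lipoproteins carrying Apoe, was at 35.2 and 32.5 CPM against 6.76, 15.5, 24.9 and 50.5 CPM (log2 fold change -0.47, SE 0.67, edgeR adjusted p = 0.622). Only GL261-GSCs replicate 4 exceeded the GL261 libraries, and the highest was 7.47 times the lowest.

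Of 12 further genes of uptake, transport and storage, 1 was called higher and 2 lower, shares near or below the 15.8% and 14.1% of all genes. Lrp8, an Apoe and reelin receptor, gave a log2 fold change of 0.82 (SE 0.17, edgeR adjusted p = 0.0127). Nceh1, a neutral cholesteryl ester hydrolase, was at 62.8 and 68.3 CPM in GL261 and at 49.0, 42.9, 31.1 and 31.3 CPM in GL261-GSCs (log2 fold change -0.76, SE 0.21, edgeR adjusted p = 0.0353). Lipa, the lysosomal acid lipase, gave -0.56 (edgeR adjusted p = 0.0239). The calls of Lrp8, Nceh1 and Lipa were lost without either GL261 library, and those of Nceh1 and Lipa also with library size scaling and without GL261-GSCs replicate 3. Vldlr, a lipoprotein receptor of neural cells, showed the same wide order as Lrp1, with 8.35 and 9.74 CPM in GL261 and 2.40, 4.94, 10.5 and 17.3 CPM in GL261-GSCs, and its groups overlapped.

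The 2 liver X receptors were below GL261 in every GL261-GSCs library, as were 28% of all genes. Of the 2, 1 was called lower, where 14.1% of all genes were. Nr1h3, which encodes LXR alpha, was at 16.9 and 15.9 CPM in GL261 and at 4.91, 3.89, 5.15 and 2.97 CPM in GL261-GSCs. The groups did not overlap, and the log2 fold change was -1.95 (SE 0.25, edgeR adjusted p = 0.00189), a 3.87-fold difference. Nr1h2, which encodes LXR beta, was at 91.9 and 94.4 CPM against 72.5, 65.5, 81.6 and 75.1 CPM, also without overlap, and was not called (log2 fold change -0.34, SE 0.13, edgeR adjusted p = 0.0855).

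Export genes were low in both cultures. Abca1 had 31 and 36 UMIs in the GL261 libraries (0.459 and 0.596 CPM) and 0 UMIs in each of the 4 GL261-GSCs libraries. Against 3 UMIs over the GL261-GSCs group its level was at least 44.5-fold lower (edgeR adjusted p = 0.00477). Abcg1 had 1 and 0 UMIs in GL261 and 0, 1, 0 and 0 UMIs in GL261-GSCs, too few to test. Apoe was at 1.81 and 1.95 CPM against 2.37, 1.78, 1.78 and 0.989 CPM, with overlapping groups (log2 fold change -0.12, SE 0.35, edgeR adjusted p = 0.828), and its sign turned under 3 of the alternatives. Mylip was at 7.48 and 5.38 CPM against 5.004, 3.49, 3.70 and 4.04 CPM. Every GL261-GSCs value was below both GL261 values, but the difference did not pass the test (log2 fold change -0.66, SE 0.24, edgeR adjusted p = 0.0814).

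Among the 4 GL261-GSCs libraries, which the labels do not divide, most synthesis genes had the same highest pair. Replicates 3 and 4 were the highest pair in 14 of the 16 synthesis genes, and the lowest pair in the other 2, Mvk and Idi1. Over all 18439 genes tested they were the highest pair in 32.4% and the lowest pair in 31.2%. The highest GL261-GSCs library was 1.26 times the lowest for Idi1, 1.31 times for Hsd17b7, 2.36 times for Lss and 2.55 times for Fdps, the extremes among the synthesis genes. Srebf2 and Insig1 had the same highest pair, while Scap had replicates 3 and 4 as its lowest pair. The cells of replicates 3 and 4 were also shallower, with medians of 10638 and 6670 UMIs against 15374.5 and 11889.5 in replicates 1 and 2, and had higher median mitochondrial shares, 1.26% and 1.35% against 1.04% and 1.11%. The part of depth and mitochondrial share in this order was not tested.

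The share of cells with a UMI of each member was described from the same UMIs. At a fixed depth such a share largely follows the mean level. It therefore does not separate more expressing cells from more RNA per cell. Cells were thinned to 2000 UMIs each, and the fraction of them in which a gene was detected was set against what free RNA in near-empty droplets would give. Hmgcs1 was detected in 5.76% and 5.80% of cells of GL261 and 35.6%, 43.6%, 53.6% and 59.5% of GL261-GSCs cells, where free RNA would give 0.210% and 0.211%, and 2.49%, 3.05%, 5.33% and 10.3%. Cyp51 was seen in 16.3% and 14.4% against 53.5%, 52.8%, 63.9% and 70.2% of cells. Every GL261-GSCs share of both genes was above every GL261 share and above its own free RNA share. Without thinning, where cells differ in depth, the means for Hmgcs1 were 29.8% ± 1.54 (SD, n = 2) and 86.7% ± 1.89 (SD, n = 4). The shares did not overlap and were higher in GL261-GSCs for all 16 synthesis genes, for Srebf2, Insig1 and Scap, and for Npc2, 20 of the 30 members where 31% of all genes tested met the same criterion. Npc2 was at 37.4% and 34.0% against 38.7% to 43.6%. Without thinning this held for 17 members, where 18.6% of all genes met it, since the groups overlapped for Mvk, Scap and Npc2, and the mean share of Npc2 was then 88.1% ± 1.97 (SD, n = 2) in GL261 and 84.9% ± 8.56 (SD, n = 4) in GL261-GSCs.

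The shares were lower in every GL261-GSCs library for 4 members, Nr1h3, Soat1, Nr1h2 and Abca1, where 18.1% of all genes met that criterion. Without thinning Lrp1 joined them, 5 members where 24.1% of all genes did. Nr1h3 was seen in 2.97% and 3.12% of GL261 cells and 0.664% to 1.08% of GL261-GSCs cells. Soat1 was at 18.4% and 15.8% against 11.9% to 12.4%, and Nr1h2 at 16.3% and 16.2% against 13.2% to 15.4%. Stard4 was detected in 0.915% and 1.14% of GL261 cells, and in 0.962%, 0.102%, 4.54% and 5.19% of GL261-GSCs cells, so its uneven level was also an uneven share of cells. Without thinning, Abca1 was detected in 0.603% and 0.680% of cells of GL261 and in 0 cells of each GL261-GSCs library, which allows a share of cells with a UMI of up to 0.0412% to 0.0704%, for counting error only. After thinning it was left in 3 and 2 cells of GL261, too few for a comparison.

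**Figure D3:**
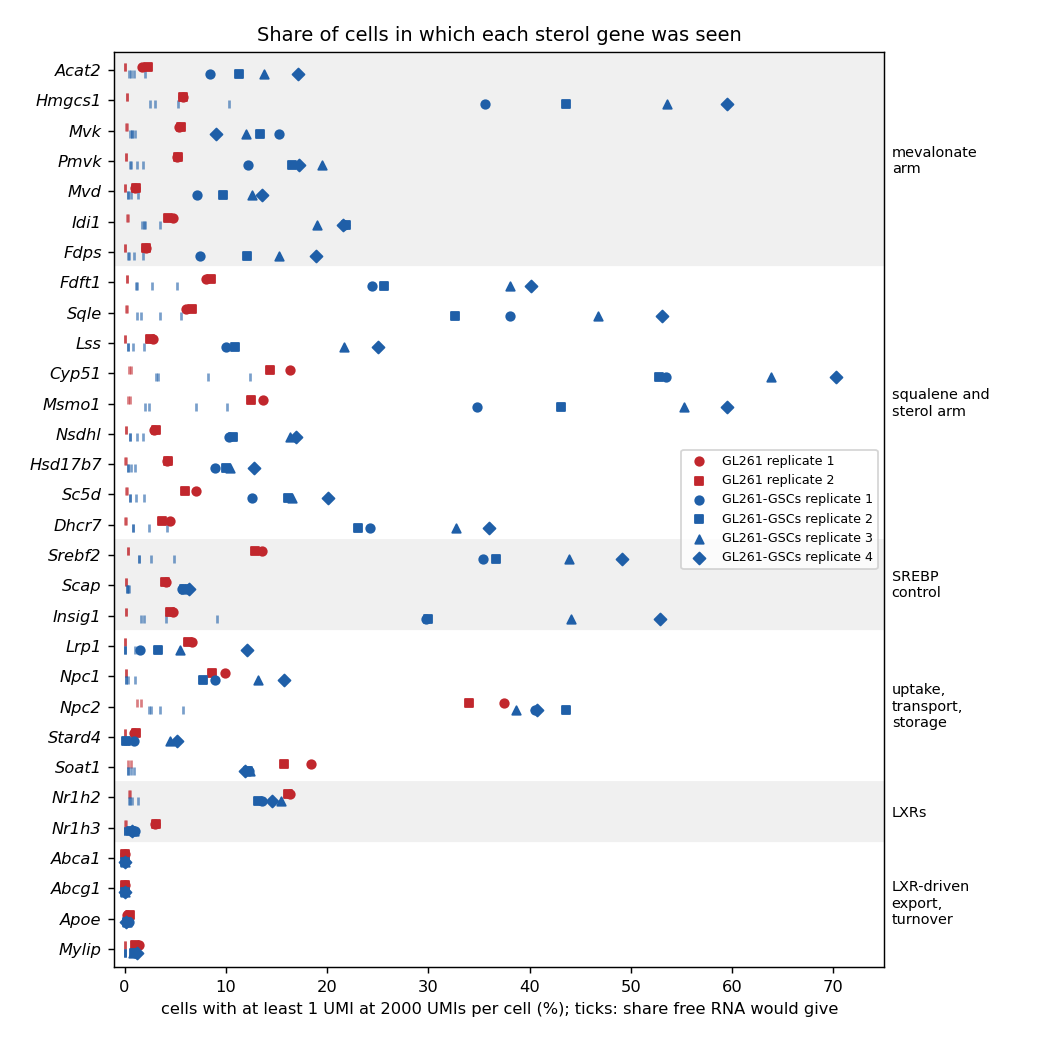
Share of called cells (%) with at least 1 UMI of each sterol gene after thinning each cell to 2000 UMIs, per library, with GL261 in red and GL261-GSCs in blue. Small vertical ticks give the share that free RNA would give. The blue points of Hmgcs1 reach from 35.6% to 59.5% and its red points lie near 5.8%.

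Per cell of 2000 UMIs, the 16 synthesis genes together gave a mean of 0.977 and 0.939 UMIs in GL261 and of 4.38, 4.70, 6.93 and 8.17 UMIs in GL261-GSCs. Free RNA would give a mean of 0.0328 and 0.0291 UMIs in GL261 and of 0.179, 0.181, 0.407 and 0.685 UMIs in GL261-GSCs. Cells with at least 1 UMI of any of the 16 made up 59.1% and 56.9% of GL261 cells and 94.8%, 95.9%, 97.4% and 98.5% of GL261-GSCs cells. Free RNA alone would give such a UMI in 3.23% and 2.87% of GL261 cells but in 16.4%, 16.6%, 33.4% and 49.6% of GL261-GSCs cells, so these shares are not a count of cells that express the genes.

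Within a GL261-GSCs library the synthesis genes varied together from cell to cell. For each synthesis gene the cells of a library were ranked by their UMIs of the other synthesis genes, and the gene's mean was compared between the upper 25% and the lower 25% of cells. The upper set was higher for every one of the 16 genes in each of the 4 libraries (64 of 64 values), from 1.33 times for Mvk to 4.31 times for Hmgcs1, with a median of 2.53. In GL261 the ratio was above 1 in 29 of 32 values, with a median of 1.47. There the ranks rest on a mean of 0.977 and 0.939 synthesis UMIs per cell, and 40.9% and 43.1% of cells held none. The medians of the groups therefore do not compare how strongly the genes vary together, and the part of the lower level was not tested. Members outside synthesis were ranked by the sum of all 16. Insig1 was 2.14 to 2.89 times higher in the upper set of the GL261-GSCs libraries, Srebf2 1.66 to 2.55 times, Scap 1.55 to 2.60 times, Soat1 1.82 to 2.20 times, Npc1 1.31 to 2.06 times, Lrp1 1.24 to 2.01 times, and Stard4 3.17 to 4.38 times in the 3 libraries that gave a ratio, with few UMIs in the first of them.

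The liver X receptor genes did not share this pattern. The ratio of upper to lower set was 0.357 to 0.778 for Nr1h3, a gene with few UMIs, 0.779 to 0.994 for Nr1h2 and 0.862 to 0.998 for Npc2. Cells of the upper set also had higher median mitochondrial shares, 1.32%, 1.27%, 2.78% and 3.39% in the 4 libraries against 1.02%, 1.09%, 1.22% and 1.16% in the lower set, and fewer UMIs before thinning, 12520, 10523, 7326 and 4790 against 15998, 12163, 11932.5 and 8393.5. Among cells at or below the median mitochondrial share of their library, an alternative chosen after seeing the data, the ratio was again above 1 in 64 of 64 values for the synthesis genes, from 1.34 to 4.50 with a median of 2.09. There the ratio of Soat1 was only 1.05 to 1.25, and those of Scap, at 0.878 to 1.22, and Npc1, at 0.75 to 1.25, spanned 1. Insig1 gave 1.82 to 2.69, Srebf2 1.19 to 1.65, Lrp1 1.10 to 1.33 and Nr1h3 0.143 to 0.75, while Npc2 turned to 1.02 to 1.20 and Nr1h2 spanned 1, at 0.833 to 1.12. The part of cell depth was not tested.

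**Figure D4:**
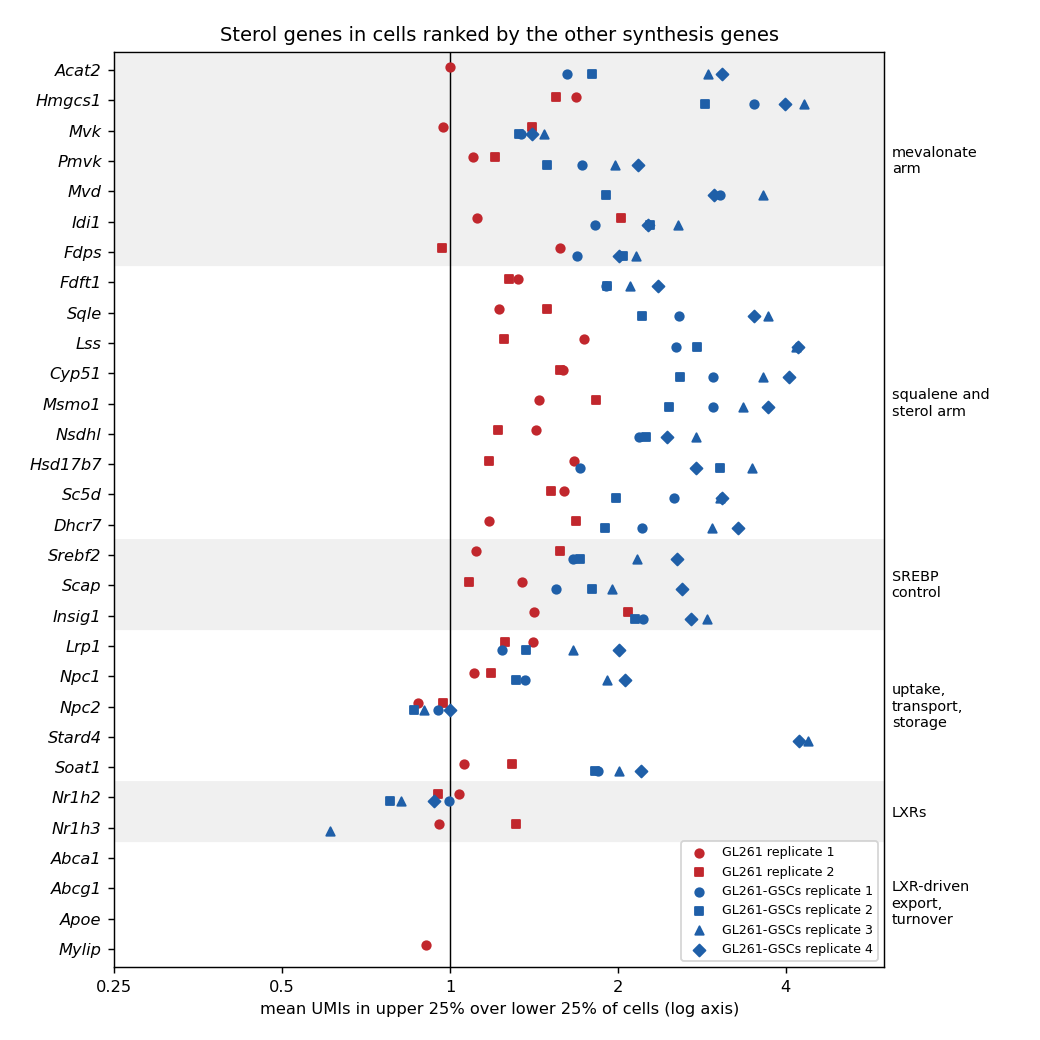
Mean UMIs of each sterol gene in the upper 25% of cells over the lower 25%, on a log axis, per library, with cells thinned to 2000 UMIs and ranked by the other synthesis genes, GL261 in red and GL261-GSCs in blue. Points are drawn where the lower set held at least 20 UMIs of the gene. The blue points of every synthesis gene lie to the right of the line at 1, and those of Npc2 and Nr1h2 at or to the left of it.

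Some members overlap other genes on the genome, and the sources used here do not say whether strand was used in counting. On the opposite strand, an exon of Fdft1 overlaps one of Ctsb, and one of Cyp51 overlaps one of Akap9. Ctsb was at a mean of 319 CPM in GL261 and 263 CPM in GL261-GSCs (log2 fold change -0.28, edgeR adjusted p = 0.213), and Akap9 at 111 and 144 CPM (log2 fold change 0.37, edgeR adjusted p = 0.0941), and neither was called. Npc1 overlaps Rmc1 on the opposite strand, which was called lower (log2 fold change -0.87, edgeR adjusted p = 0.0126). Hmgcs1, Idi1, Lss and Scap overlap predicted genes or noncoding transcripts with means of at most 8.09 CPM. The partners of Hmgcs1, Idi1 and Lss were called higher, at 2.61, 3.47 and 2.50 on the log2 scale (edgeR adjusted p = 0.00253, 0.0187 and 0.00713), and reads of such partners and members cannot be told apart without strand. In addition, Fdps and Nr1h3 each share exon bases with a predicted gene on the same strand. The 12 chromosomes that carry the synthesis genes had medians of all their tested genes between -0.24 and 0.40 on the log2 scale. A median over a whole chromosome does not describe the stretch around a gene. The part of differences between chromosomes in the rises was not tested.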

How the data were processed

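Gene expression was measured in 6 libraries of a mouse glioma line. The authors deposited raw UMI counts per gene and barcode, unfiltered, from Cell Ranger 4 (per the file headers), on mm10 per the submitters' processing notes. Neither the annotation release nor the use of strand in counting is given in the sources used here. The 30 members and all lists were chosen with earlier results of these data known. Of 54446 gene identifiers, 54409 matched GENCODE M21 (GRCm38), from which coordinates were taken, and all 106 listed symbols were found with 1 identifier each.

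Barcodes were called cells when their UMIs reached 10% of a high reference, the 99th percentile among the top 3000 barcodes of the library, with at least 500 genes and under 10% mitochondrial UMIs. Doublets were not removed. UMIs were summed over the cells of each library and tested with the edgeR 4.0.16 quasi-likelihood test in R 4.3.3 (TMM, filterByExpr, 2-sided, Benjamini-Hochberg over 18439 genes, group as the only term). CPM used TMM-scaled library sizes, and the SE is the absolute log2 fold change over the square root of F. A gene at 0 UMIs in a group has a bound against 3 UMIs over that group. Free RNA came from barcodes with 100 to under 1000 UMIs. Its expected share of cells is 1 minus the exponential of the negative number of free UMIs due in 2000, with the median of those barcodes as the free RNA of a cell. Shares, sums by role, sets of cells and motif counts were not tested: with 2 against 4 libraries the smallest 2-sided exact permutation p is 0.133. Of the 42 further pathway genes, the rule named the 3 largest rises and falls among called genes with at least 20 CPM in a group; the other further genes were named after their values were seen. Some genes of these lists are not reported here by name.

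On simulated data for this comparison (18439 genes, 200 changed by 2 on the log2 scale) edgeR recovered 126 with 10 false calls, limma-voom (limma 3.58.1) 127 with 13, and DESeq2 1.42.0 154 with 67. In the data 5514 genes were called, far more than were changed there, so these counts need not hold for the data. Alternatives were other scalings and tests, no filter, other barcode sets, thinning, a replicate block and leaving out each library.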

Additional observations from a re-analysis of the deposited data

Results flagged for a closer look

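The CPM of Abcg1 in GL261-GSCs replicate 2 was 0.0138, from 1 UMI, while the other 3 GL261-GSCs libraries held none. With 3 values at 0 any other value is flagged, so this says nothing about the library. It was the 1 outlier among the 29 members whose 4 GL261-GSCs values were checked. Chance flags about 1 in 20 such groups, and a value of 1 UMI is within counting error.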

How the results depend on the processing

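All 16 synthesis genes, Srebf2 and Insig1 kept their direction and their calls under each of the 9 alternatives that used all libraries. Among these, the replicate block took its group difference from replicates 1 and 2 alone. The sum of the synthesis genes stayed between 4.87 and 5.83 times that of GL261 under other scalings, other barcode sets, thinning and leaving out each library. This ratio was not computed for the other tests, the fit without a filter or the replicate block. Library size scaling moved the median of all genes from 0.04 to 0.18 on the log2 scale. It called Scap higher (0.47) and left 3 further genes called lower. The DESeq2 test called Scap higher and Mylip lower, and edgeR without GL261-GSCs replicate 1 also called Mylip lower (adjusted p = 0.0471). Leaving out each library gave 1817 to 6193 genes called in all, with both lowest counts for a missing GL261 library. It gave 3 to 14 further genes called higher and 1 to 5 called lower. Of the members not called, 3 changed sign: Npc1 was 0.11 with library size scaling, 0.0026 with all barcodes, 0.16 after thinning, 0.068 without GL261-GSCs replicate 1 and 0.11 without replicate 2, in a range from -0.19 to 0.11 over the libraries left out. Stard4, at 0.95 in the fit reported, was -0.20 with limma-voom, and Apoe 0.0203 with library size scaling and 0.093 without GL261-GSCs replicate 4, in a range from -0.28 to 0.093. The causes were not tested. Thinning left Abca1 too low to test.

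Deviations of same-numbered libraries from their group means correlated at -0.0888 and 0.132 over 5426 genes. With 2 GL261 libraries these deviations are mirror images of each other. The correlations therefore cannot tell whether a replicate number marks a shared culture or day. A fit with the replicate number as a block called 6 members lower, adding Lrp1 (-1.71), Npc1 (-0.45) and Nr1h2 (-0.43), and gave Stard4 -1.86 and Apoe 0.13. Replicates 3 and 4 existed only in GL261-GSCs, so the group difference of that fit came from replicates 1 and 2 alone. Depth limits Abca1 and Abcg1, which had few or no UMIs, while Apoe held 36 to 156 UMIs per library.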

Other observations

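Of 10 genes outside the module that work with or answer to the liver X receptors, 2 were called higher in GL261-GSCs, 1 lower and 7 not, which is near the 15.8% and 14.1% of all genes. The 3 genes named first here were chosen after their values were seen. Pltp, a phospholipid transfer protein and known LXR target, was at 11.95 and 12.2 CPM in GL261 and at 0.516, 0.414, 0.488 and 0.934 CPM in GL261-GSCs (log2 fold change -4.38, SE 0.34, edgeR adjusted p = 0.0003). Smpdl3a, a phosphodiesterase and also a known LXR target, went the opposite way, from 0.415 and 0.381 CPM to 8.29, 10.9, 7.58 and 12.4 CPM (log2 fold change 4.61, SE 0.34, edgeR adjusted p = 0.00025). Both had groups far apart, and each held its call under every alternative run. Rxrb, a partner receptor of the liver X receptors, gave 0.53 (SE 0.12, edgeR adjusted p = 0.0179), a call lost after thinning and without either GL261 library. The apolipoprotein genes Apoc1 and Clu had higher values in every GL261-GSCs library and did not pass the test: Apoc1 was at 2.59 and 1.82 CPM against 4.81, 4.86, 7.02 and 17.97 CPM (edgeR adjusted p = 0.0589), and Clu at 112 and 119 CPM against 126, 189, 288 and 363 CPM (edgeR adjusted p = 0.094).

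Among 4 enzymes that make or clear oxysterols, 1 was called higher and none lower, where 15.8% and 14.1% of all genes were. Ch25h, which makes 25-hydroxycholesterol, had 0 UMIs in both GL261 libraries and 327 in GL261-GSCs, at 0.409, 0.869, 2.20 and 1.68 CPM, a level at least 54.7-fold higher than 3 UMIs over the GL261 libraries (edgeR adjusted p = 0.00751). Cyp7b1, which breaks down oxysterols, had replicates 3 and 4 above replicates 1 and 2 of GL261-GSCs, as Stard4 did, with 1.23, 2.39, 8.14 and 6.57 CPM against 3.63 and 2.44 CPM in GL261, and its groups overlapped.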
